A study of Homo sapiens with 12 samples.

Results

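Complex I, or NADH:ubiquinone oxidoreductase, is the entry point of the respiratory chain, and 54 of the 19112 genes in a genome-wide knockout screen were examined here for it: 36 nuclear-encoded subunits, 17 assembly factors and 1 read-through gene, NDUFC2-KCTD14. Members were all symbols that began with NDUF followed by A, B, C, S or V, without NDUFA4 (a complex IV subunit), its paralog NDUFA4L2 and NDUFAB1 (the mitochondrial acyl carrier protein, which also serves other pathways), together with the assembly genes C17orf89 (now NDUFAF8), ACAD9, ECSIT, TMEM126A, TMEM126B, TIMMDC1, FOXRED1, NUBPL, SFXN4 and PYURF. The screen used HEK293, a human embryonic kidney cell line, transduced with the Brunello library of single guide RNAs (sgRNAs). The cells were grown in high-glucose medium with glutamine, pyruvate, uridine and non-essential amino acids. Cells were sampled on day 15 of growth in ethanol (EtOH), the solvent control, in 15 µM actinonin (ACT), in 5 µg/mL chloramphenicol (CAP) or in both drugs (ACT CAP), with 3 replicates that the study calls independent in each of the 4 conditions, 12 samples in all. Actinonin inhibits the mitochondrial peptide deformylase and was used to make mitochondrial translation faulty, whereas chloramphenicol blocks the mitochondrial ribosome, so that in ACT CAP actinonin acted on cells whose mitochondrial translation was blocked.

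Complex I passes electrons from NADH to ubiquinone and pumps protons across the inner membrane. Its matrix arm holds an N module, where NADH is oxidised, and a Q module, where ubiquinone is reduced, and its membrane arm holds the modules named after the mitochondrially encoded subunits ND1, ND2, ND4 and ND5. The nuclear-encoded subunits surround a core in which some subunits come from mitochondrial DNA, and a nuclear knockout library does not reach those. Assembly factors build the modules separately and join them, and most of them leave the finished enzyme.

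The values are gene scores from a maximum likelihood fit in which the 3 replicates of a condition were combined. Beta is the fitted change in abundance of a gene's sgRNAs relative to a reference left unnamed in the table, and z is beta divided by its standard error (SE), so a low z means that sgRNAs against the gene were depleted. Every member had 4 sgRNAs. The SE of a member's beta in EtOH ran from 0.0657 to 0.151 and in the other conditions stayed between 0.991 and 1.02 times that value, so z differences between conditions almost only reflect beta. Since the reference is open, a z was read by its rank among all genes, whose median z was -2.03 in EtOH, -1.73 with ACT, -1.78 with CAP and -1.70 with ACT CAP. Values of single replicates were not analysed here, and the error beside each value is the fit's own.

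Complex I knockouts had their lowest score in actinonin. Of the 54 members, 46 (85.2%) had the lowest of their 4 z values in ACT, against 24.9% of all genes. The median z of the members was -4.85 in EtOH, -6.10 with ACT, -3.01 with CAP and -3.09 with ACT CAP. In the ranking by z, 29 members were among the lowest 10% of genes in EtOH, 43 with ACT, 14 with CAP and 15 with ACT CAP, where 10% of all genes lie by construction. Complex I loss was thus scored low already without drug, lower with actinonin, and nearer to the other genes whenever chloramphenicol was present. This pattern was not particular to complex I. The median z of 36 complex IV genes was -4.59 in EtOH, -5.77 with ACT, -3.22 with CAP and -3.02 with ACT CAP. Complex II, with -3.04, -4.29, -2.98 and -3.29 in the same order, also had its lowest median in ACT. So did complex V, with -3.81, -4.54, -2.55 and -3.44. In complex III the median was not lower with ACT, at -4.41 against -4.77 in EtOH. The highest of the 4 values was in CAP for 26 members and in ACT CAP for 27, and for 1, NDUFB1, in ACT.

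**Figure D1:**
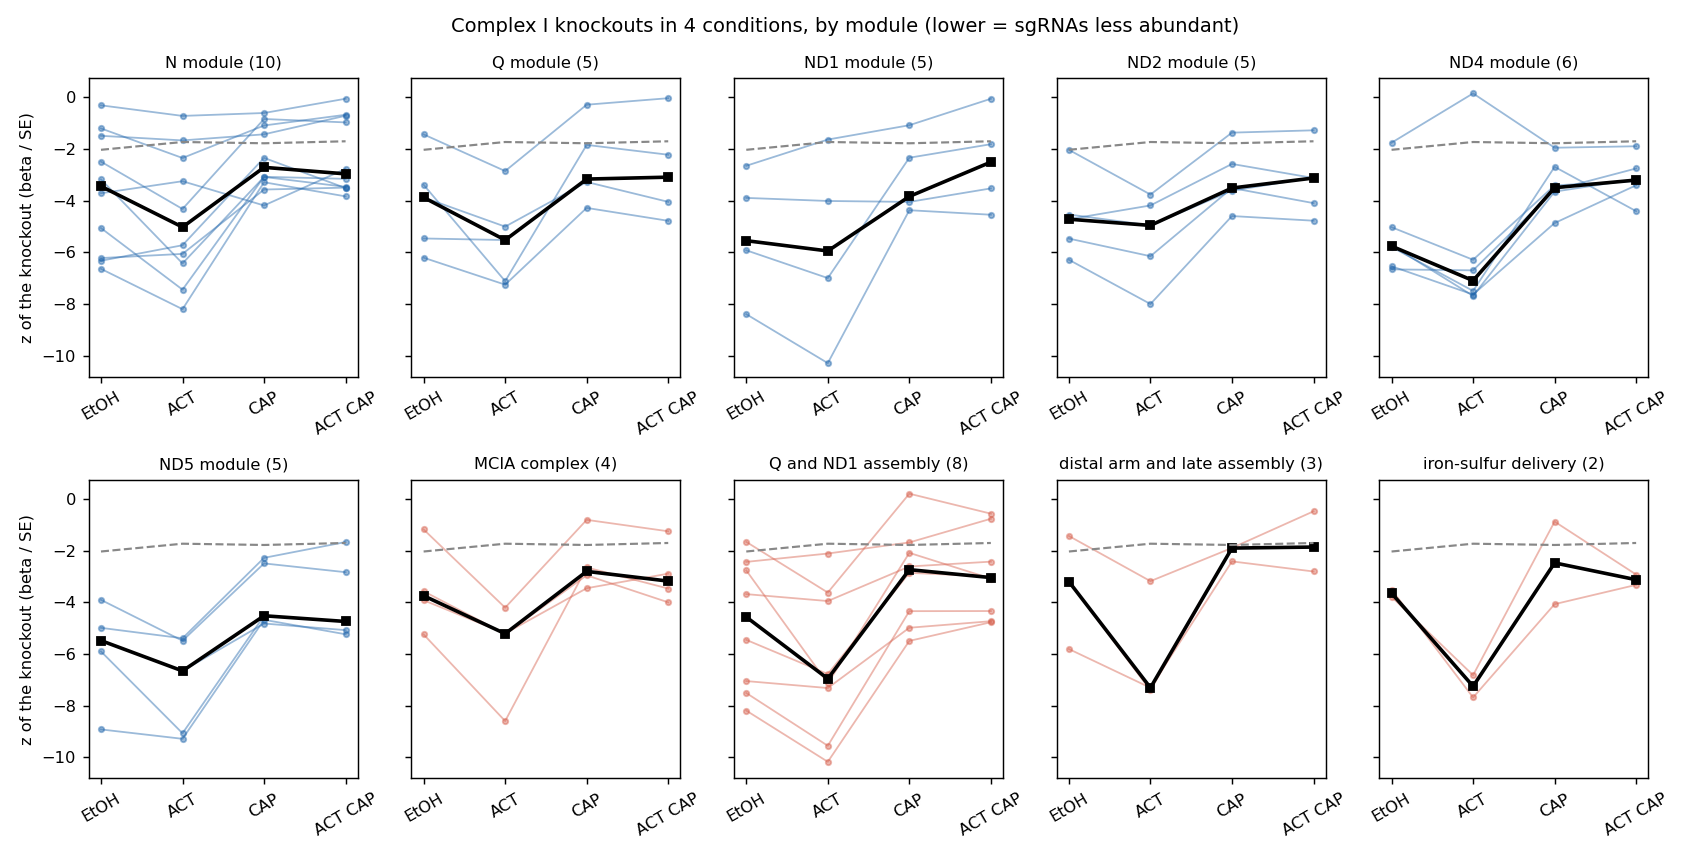
The z of each knockout (beta divided by its SE, no unit) is plotted for the 4 conditions, with 1 thin line per gene, the module's median as a thick black line and the median of all genes as a dashed line (subunit modules in blue, assembly factors in orange, number of genes in brackets). In all 10 panels the median was lowest in ACT, from -4.96 in the ND2 module to -7.31 in distal arm and late assembly.

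The order of the modules differed between conditions. Without drug, the subunits had a median z of -5.04 and the assembly factors of -3.68. In ACT the order by z was turned, with -6.0 for subunits and -6.82 for assembly factors, and with both drugs the medians were -3.14 and -2.92. By beta the order was not turned. The median beta was -0.527 for subunits and -0.395 for assembly factors in EtOH, and -0.603 and -0.567 in ACT. The SE differs between genes, so an order of groups by z need not be an order by beta. In EtOH the membrane arm lay lowest, at -5.76 for the ND4, -5.55 for the ND1 and -5.48 for the ND5 module, and the N module, at -3.44, lay highest of the 6 subunit modules. The N module held subunits of very unlike scores, from -6.64 for NDUFA2, a small accessory subunit, to -0.305 for NDUFV3, which sits at the edge of the flavin-binding subunits. These medians are descriptions over 2 to 10 genes each, and no difference between modules was tested.

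The 5 members with the lowest z in EtOH came from several stages of assembly. NDUFB7, an accessory subunit on the intermembrane-space side of the ND5 module, had a z of -8.92 in EtOH, -9.28 with ACT, -4.67 with CAP and -5.23 with ACT CAP. NDUFA1, a small membrane subunit beside ND1, had -8.39, -10.3, -4.37 and -4.54 in the same order. C17orf89, which stabilises the assembly factor NDUFAF5, had -8.19, -10.2, -5.49 and -4.77. For these genes the drop from the conditions with chloramphenicol to ACT spanned 4 z units or more. TIMMDC1, which is needed to build the ND1 module, had -7.51, -9.55, -4.34 and -4.33. NDUFAF7, a methyltransferase of early assembly, had -7.05, -7.32, -4.98 and -4.73. NDUFAF7 and NDUFB7 were thus scored about as low in EtOH as in ACT. The spread of NDUFAF7 over the conditions was the narrowest of the 5.

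Not every subunit was scored low. NDUFV3 ranked at the 89.1 percentile of all genes from the lowest in EtOH and at the 74.4 percentile in ACT. NDUFS4, an accessory subunit of the N module, had a z of -1.20 in EtOH and -2.35 in ACT. NDUFA12, which takes the place of the assembly factor NDUFAF2 in the finished enzyme, had -1.49 in EtOH and -1.67 in ACT. All of these lay above or near the median of all genes in EtOH. NDUFC2 had a z of -2.03 in EtOH, whereas the read-through gene NDUFC2-KCTD14, which begins with the same gene, had -5.14. The sgRNAs of either entry were not analysed here, so how many of the cuts they share is not known.

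ACT was compared with EtOH to ask which knockouts cost more or less during faulty mitochondrial translation. SFXN4, PYURF and TMEM126A, all of them assembly factors, fell in ACT, and no subunit passed the test. The test divides the beta difference by its SE, centres it on the median and scales it by the spread of all genes (below, the scaled difference), with 2-sided normal p-values, Benjamini-Hochberg adjustment over the whole table and a limit of 0.05. By it 3 of 54 members were called lower and 0 higher, against 0.157% of all genes called lower and 1.08% higher. At an unadjusted p under 0.05, 10 members lay lower and 0 higher, against 2.8% and 4.94% of all genes. By a z difference of 3, a size taken from the study's cut for ACT against ACT CAP, which rested on averaged z-scores of single sgRNAs and not on the z used here, 9 lay lower and 0 higher, against 0.769% and 4.02%. With the fit's own errors in place of the spread of all genes, 0 members passed, and none of the 3 calls was kept.

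PYURF, a chaperone-like partner of the methyltransferases NDUFAF5 and COQ5, had a z of -2.76 in EtOH, -7.14 with ACT, -2.08 with CAP and -3.08 with ACT CAP. Its beta in ACT differed from that in EtOH by -0.425 ± 0.137 (SE), a scaled difference of -3.75 that ranked 20 from the lowest of all genes. SFXN4, a sideroflexin needed for complex I and iron-sulfur cluster biogenesis, had -3.50, -7.68, -4.07 and -3.32. Its beta difference was -0.482 ± 0.161, with a scaled difference of -3.63. TMEM126A, which acts on the ND4 module, had -3.20, -7.40, -1.90 and -1.86, with a beta difference of -0.320 ± 0.107 and a scaled difference of -3.62. In EtOH these 3 knockouts ranked at the 32.2, 18.9 and 23.8 percentile of all genes, and in ACT all of them were at or under the 0.570 percentile. Their z thus lay above the complex I median without drug and below it with actinonin. These 3 genes were picked by the difference between ACT and EtOH, so this pair of ranks is not a separate finding.

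A further 6 members had z differences of -3 or less between ACT and EtOH without passing the test. NDUFS3, a core subunit of the Q module, had a z difference of -3.73, from -3.38 to -7.11, and NDUFS6, a zinc-binding subunit of the N module, had -3.25. NDUFB8 of the ND5 module had -3.17. NDUFAF1 and TMEM126B, of the mitochondrial complex I assembly (MCIA) complex that builds the ND2 module, had -3.35 and -3.03, and NUBPL, which delivers iron-sulfur clusters to complex I, had -3.04. Assembly factors made up 6 of the 9 members past this limit, and the difference in share between assembly factors and subunits was not tested. The median z difference was -1.96 over the assembly factors, -1.09 over the subunits and 0.32 over all genes. In complexes II, III, IV and V it was -1.14, 0.16, -1.26 and 0.04. Below 0 lay 47 of 54 members, against 7610 of 19111 genes in all. In the 4 complexes 6 of 6, 7 of 15, 30 of 36 and 9 of 19 genes lay below 0. On the other side NDUFB1, a small subunit of the ND4 module, had a z difference of 1.91 and NDUFA3 of the ND1 module 1.02, and NDUFS1, which carries iron-sulfur clusters of the N module, had 0.60. None of these passed the test.

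Over all genes, knockouts that were low in EtOH tended to lie higher under either drug, with a running median of the z difference above 1 for the lowest genes. The EtOH score is part of both values compared, so error in that score also gives such a trend. How much of the trend came from it was not tested. Complex I knockouts that were low in EtOH lay above 0 in CAP but mostly below 0 in ACT. After this trend was taken off, the median difference of the members in ACT moved from -1.27 to -2.20, and 6 members passed the test, NDUFAF1, NDUFB8 and NDUFS3 in addition to the same 3 genes. The drugs slowed growth, so a smaller cost of a knockout and fewer cell divisions cannot be told apart in a difference from EtOH.

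**Figure D2:**
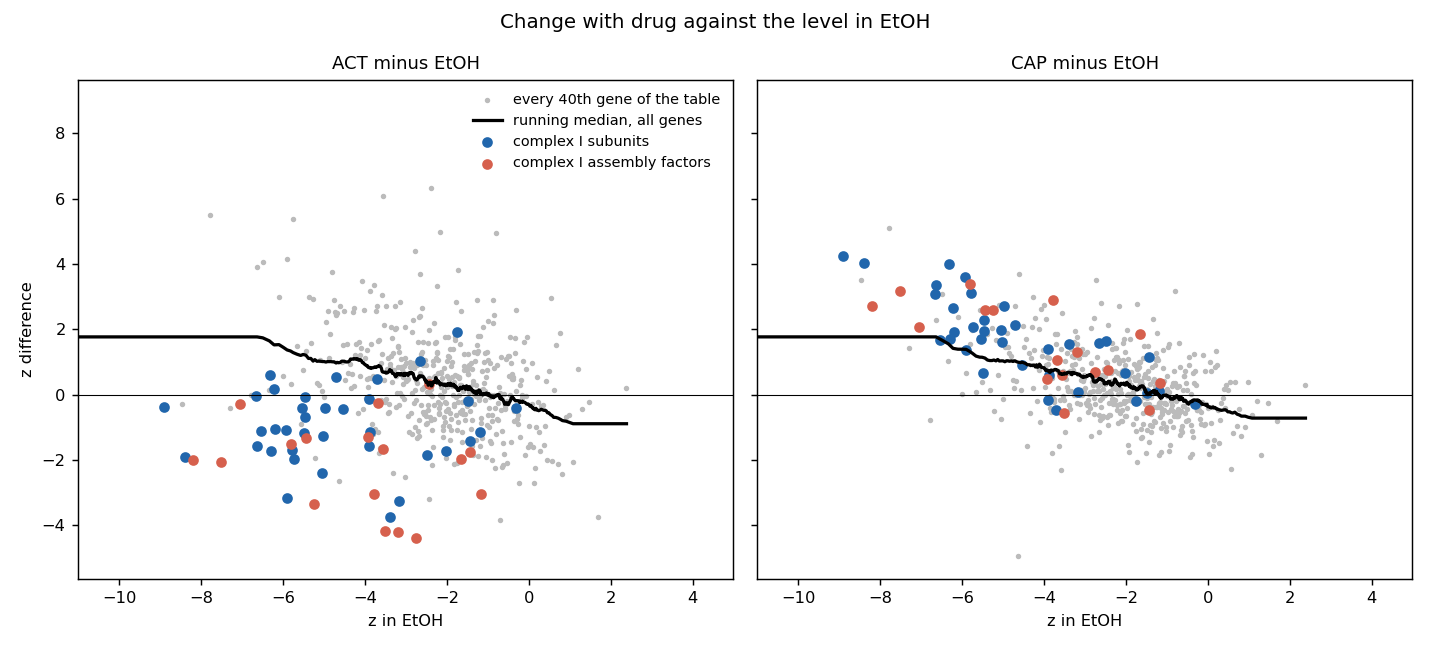
The z difference between drug and EtOH (vertical axis, no unit) is plotted against the z in EtOH for ACT (left) and CAP (right), with subunits in blue, assembly factors in orange, a regular sample of all genes in grey and the running median of all genes in black, which is flat at both ends because its window there is fixed. In ACT most members lay below the line, with a median difference of -2.20 from it, and in CAP they lay around it, with a median of 0.63.

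CAP was compared with EtOH to ask which knockouts cost more or less when mitochondrial translation is blocked. Complex I knockouts had higher scores, as did those of complexes III and IV, and 1 member, NDUFB7, rose by the test. The call was for 1 of 54 members higher and 0 lower, against 0.188% of all genes higher and 0.0628% lower. At an unadjusted p under 0.05, 16 members lay higher and 0 lower, against 3.91% and 2.93% of all genes. By the z difference of 3 the count was 9 higher and 0 lower, against 1.13% and 0.183%. The median z difference was 1.66 over subunits, 1.30 over assembly factors and 0.28 over all genes. Above 0 lay 48 of 54 members, against 11695 of all 19112 genes. Medians in complexes II, III, IV and V were 0.50, 1.67, 1.36 and 0.93. Called higher were COX5A and PET117 of complex IV, and 0 genes of complexes II, III and V. In complex IV 10 of 36 genes lay higher at an unadjusted p under 0.05.

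NDUFB7 had a beta in CAP 0.525 ± 0.174 (SE) above that in EtOH, a scaled difference of 3.94 and a z difference of 4.25. NDUFA1 had a z difference of 4.03 and a scaled difference of 3.71, and NDUFS1 had 3.98 and 3.70, close to the limit but not past it, since the smallest scaled difference called in this comparison was 3.85. These genes were among the lowest in EtOH, where NDUFS1 had a z of -6.32, and the call for NDUFB7 was lost once the trend with the EtOH score was taken off. Without that trend the median difference of all members was 0.63 in place of 1.63. The lowest differences belonged to SFXN4, NDUFA7 of the N module and NDUFAF2, a late assembly factor, at -0.56, -0.47 and -0.46.

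ACT CAP was compared with EtOH in the same way, and 48 of 54 members lay above 0, against 12239 of all 19112 genes. Median z differences were 1.47 over subunits, 1.26 over assembly factors and 0.36 over all genes. With the trend against the EtOH score taken off, these medians were 0.57 over subunits and 0.63 over assembly factors. By the scaled difference 0 members passed, against 0.194% of all genes called higher and 0.0837% lower. At an unadjusted p under 0.05, 17 lay higher and 0 lower, against 3.75% and 3.01%. By the z difference of 3 there were 10 higher and 0 lower, against 1.27% and 0.188%. The largest difference was that of NDUFA9, at the junction of the Q and ND1 modules, whose z was -5.92 in EtOH and -1.81 in ACT CAP, a beta difference of 0.515 ± 0.177 and a scaled difference of 3.73, where the smallest called was 3.82. NDUFB11 of the ND4 module, with a z difference of 3.91, and NDUFA1, with 3.85, followed. ACAD9, the MCIA member related to acyl-CoA dehydrogenases, had -0.43, PYURF -0.32 and NDUFS6 -0.29. The 3 comparisons with EtOH share the EtOH samples, so their values for a gene are not independent of each other.

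ACT was compared with ACT CAP to ask what changed when chloramphenicol was added to actinonin. Complex I made up the largest share of the knockouts on the lists examined here that were lower in actinonin alone: 20 of 54 members were called lower and 0 higher, or 37.0% of members, against 0.288% of all genes called lower and 0.534% higher. Of all 55 genes called lower, 20 (36.4%) were complex I members, 7 were complex IV genes, 1 was RTN4IP1 among other complex I genes, and 27 were on no list used here. Members held 4 of the 10, 7 of the 20 and 20 of the 50 lowest places in this comparison. The median z difference was -2.74 over subunits, -3.78 over assembly factors and -0.02 over all genes. The z difference was below 0 for 53 of 54 members, against 9698 of 19111 genes in all. Median beta was -0.603 in ACT and -0.320 in ACT CAP over subunits, and -0.567 and -0.297 over assembly factors. The SE differs between genes, so the larger z difference of assembly factors need not be a larger beta difference. No difference between subunits and assembly factors was tested. By the z difference of 3, 26 members lay lower and 0 higher, against 0.665% and 1.25% of all genes. The counts at an unadjusted p under 0.05 were 39 lower and 1 higher, against 3.2% and 4.33%.

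These calls rest on the spread of all genes as the measure of error. The z differences of all genes had a spread (median absolute deviation, scaled to a standard deviation) of 1.05, narrower than the fit's own errors give for a difference of separate estimates, and with those errors in place of the spread 0 members and 5 genes in all were called lower. At an adjusted p of 0.01 the count was 12 members. With the trend against the ACT CAP score taken off, 22 members were called, among them the same 20.

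**Figure D3:**
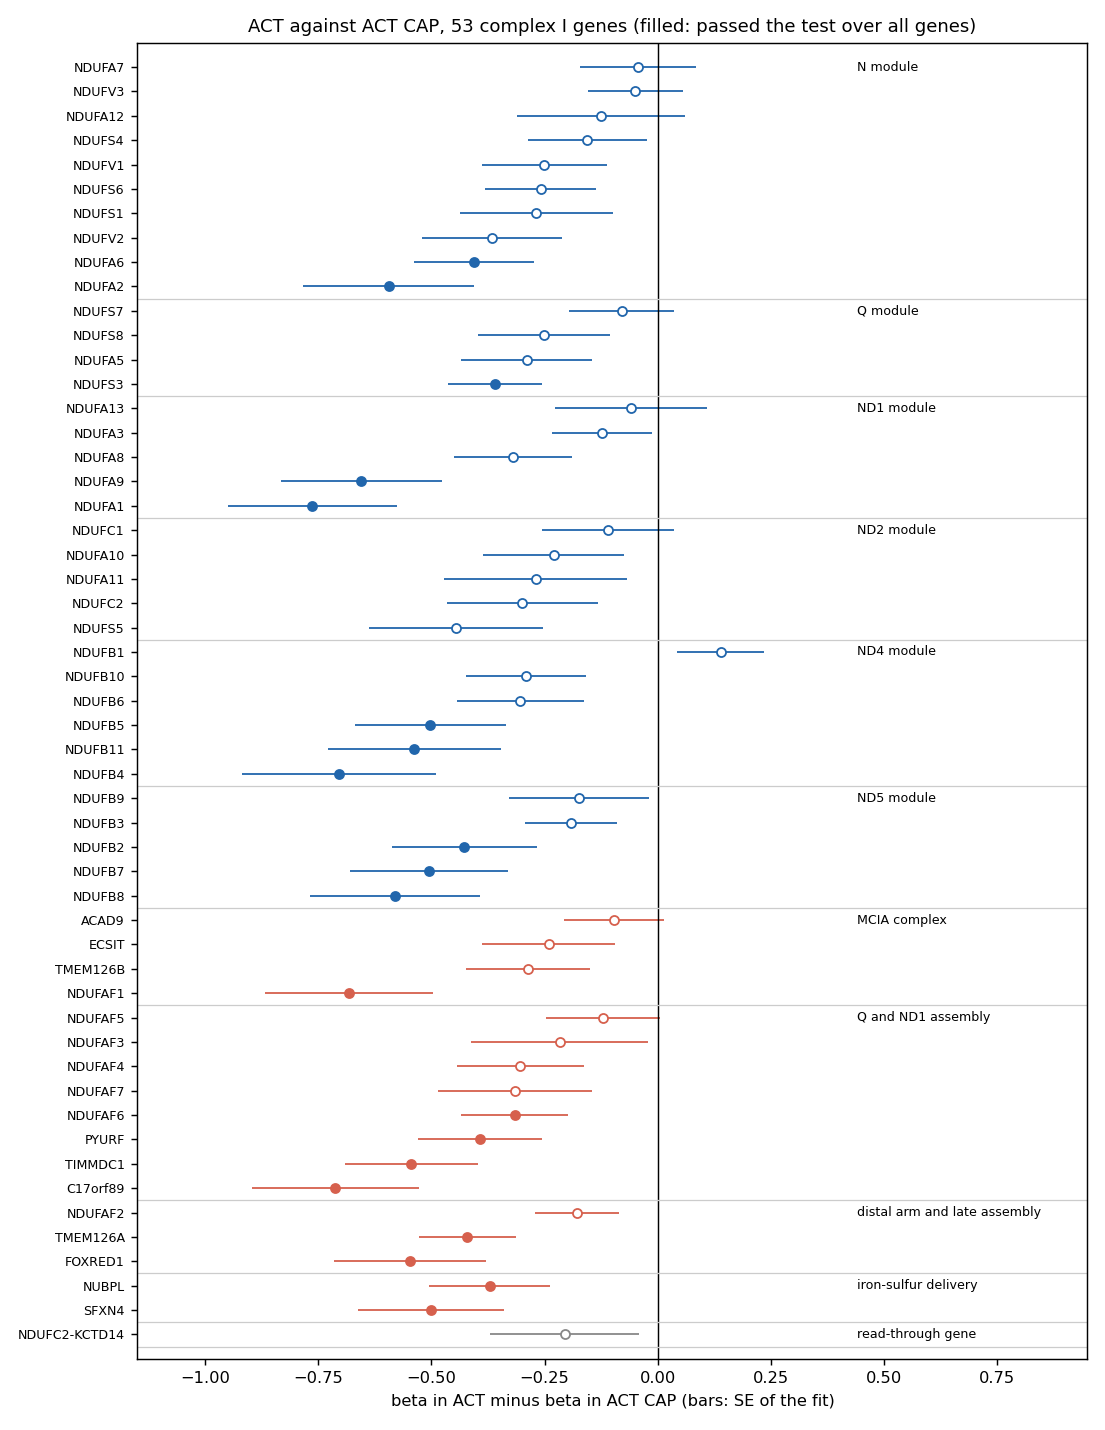
The beta in ACT minus the beta in ACT CAP (horizontal axis, no unit) is plotted for 53 of the 54 genes by module, with bars for the SE of the fit, and filled points passed the test over all genes (subunits blue, assembly factors orange, read-through gene grey). Filled points ran from -0.316 for NDUFAF6 to -0.764 for NDUFA1, and NDUFB1 was the only gene above 0.

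Among the assembly factors 9 of 17 (52.9%) fell in ACT against ACT CAP. Both genes of iron-sulfur delivery were among them, SFXN4 with a beta difference of -0.501 ± 0.161 and a scaled difference of -4.18, and NUBPL with -0.371 ± 0.134 and -3.71. NUBPL had a z of -3.78 in EtOH, -6.82 with ACT, -0.87 with CAP and -2.92 with ACT CAP, so its scores in the conditions with chloramphenicol were themselves apart. In the distal arm and late group TMEM126A fell by the second largest scaled difference of the members, -5.29, with a beta difference of -0.421 ± 0.107. FOXRED1, an oxidoreductase-like factor of the late steps, had a z of -5.81, -7.31, -2.41 and -2.80 and a scaled difference of -4.37. NDUFAF2, the third gene of this group, had a z difference of -2.70 and did not pass.

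Of the 8 factors of the Q and ND1 modules, 4 fell. C17orf89 had a beta difference of -0.713 ± 0.184 and a scaled difference of -5.20, and TIMMDC1 had -0.545 ± 0.147 and -4.98. PYURF had a scaled difference of -3.86. NDUFAF6, a phytoene synthase-like protein of early Q module assembly, had a z of -5.45, -6.77, -2.85 and -3.0 and a scaled difference of -3.59, just past the smallest one called, 3.53 in size. NDUFAF3 and NDUFAF4, which bind each other on the early Q module, NDUFAF5, which modifies the Q module subunit NDUFS7, and NDUFAF7 had z differences between -3.06 and -1.35 and did not pass. The methyltransferase-like NDUFAF5 and its stabilising partner C17orf89 were thus far apart, NDUFAF5 with a z of -2.11 in ACT and C17orf89 with -10.2.

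In the MCIA complex 1 of 4 genes fell. NDUFAF1, its first described member, had a z of -5.24 in EtOH, -8.59 with ACT, -2.65 with CAP and -3.46 with ACT CAP, with a beta difference of -0.682 ± 0.186 and a scaled difference of -4.92. ECSIT, TMEM126B and ACAD9 had z differences of -2.32, -2.96 and -1.22 and did not pass. In EtOH the scores of the 4 partners ran from -5.24 for NDUFAF1 to -1.17 for TMEM126B, and in ACT ECSIT and ACAD9 had nearly the same z, -5.20 and -5.22.

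Among the subunits 11 of 36 (30.6%) fell, and they were spread over 5 of the 6 modules. In the ND1 module NDUFA1 had the largest scaled difference of all members, -5.50, with a beta difference of -0.764 ± 0.187, and ranked 6 from the lowest of all genes. NDUFA9 had a z of -5.92, -7.00, -2.33 and -1.81 and a scaled difference of -4.96. NDUFA8 had a z difference of -3.44 and NDUFA3 of -1.58, and neither passed. NDUFA13, also known as GRIM-19, had -0.49, with z between -3.52 and -4.05 in all 4 conditions.

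In the Q module NDUFS3 fell, with a beta difference of -0.360 ± 0.104 and a scaled difference of -4.66. Its z was -3.38 in EtOH, -7.11 with ACT, -1.84 with CAP and -2.22 with ACT CAP. The core subunits NDUFS7 and NDUFS8 and the accessory subunit NDUFA5 had z differences between -2.82 and -0.96 and did not pass.

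In the N module 2 of 10 subunits fell, and both are accessory subunits. NDUFA2 had a z of -6.64, -8.20, -3.29 and -3.83 and a scaled difference of -4.23, and NDUFA6 had -5.06, -7.44, -3.07 and -3.15 and -4.11. The subunits that carry electrons, NDUFV1 with the flavin and NDUFV2 and NDUFS1 with iron-sulfur clusters, had z differences of -2.57, -3.35 and -2.21 and did not pass. NDUFA7 had -0.48 and NDUFV3 -0.67, the smallest differences below 0 beside that of NDUFA13. In NDUFV1 and NDUFS1 the z in ACT, -6.06 and -5.72, lay above that in EtOH, -6.22 and -6.32.

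The distal membrane arm held 6 of the 11 subunits. In the ND4 module NDUFB4 had a z of -5.72 in EtOH, -7.69 with ACT, -3.65 with CAP and -3.16 with ACT CAP, with a scaled difference of -4.42. NDUFB5 had a scaled difference of -4.05 and NDUFB11 of -3.76. In the ND5 module NDUFB8 had a z of -5.90, -9.07, -4.52 and -4.74 and a scaled difference of -4.15. NDUFB7, with -3.88, and NDUFB2, with -3.57, fell too. These modules lie at the tip of the membrane arm, and 3 of 6 and 3 of 5 of their subunits were called.

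The ND2 module, in the middle of the membrane arm, had 0 of 5 subunits called by the scaled difference and 3 lower at an unadjusted p under 0.05. At the z difference of 3 NDUFS5, which had a z of -8.00 in ACT and -4.77 in ACT CAP, was past the limit at -3.23. NDUFA10, NDUFA11, NDUFC1 and NDUFC2 had z differences between -2.49 and -1.06. The median z difference of this module, -2.06, was the nearest to 0 of the 10 groups, and whether it differed from the others was not tested.

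NDUFB1 stood on the other side. Its z was -1.75 in EtOH, 0.16 with ACT, -1.95 with CAP and -1.89 with ACT CAP. It was the only member above 0 in ACT, at the 88.6 percentile of all genes there, and its beta in ACT exceeded that in ACT CAP by 0.140 ± 0.096. The scaled difference of 1.97 did not pass the test. The members whose lowest score was not in ACT were NDUFB1, NDUFA7 and NDUFA13, lowest in CAP, and NDUFAF5, NDUFA3, NDUFV1, NDUFS1 and NDUFC1, lowest in EtOH.

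Members that were scored low without drug also had the larger drop. Over the 54 members Pearson's r between the z in EtOH and the z difference of ACT against ACT CAP was 0.50 and Spearman's rho 0.46, and over 19111 genes they were -0.04 and -0.02. The conditions on the axes share no samples. The points are genes of 1 enzyme measured in 1 library with the same sgRNAs on both axes, so they are not independent and no test was made. PYURF, SFXN4 and TMEM126A had large drops although their z in EtOH lay above the median of the members.

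ACT CAP was compared with CAP to ask what actinonin added in cells that also received chloramphenicol, given together with it. By the scaled difference 0 members passed, against 0.0209% of all genes called higher and 0.0262% lower. At an unadjusted p under 0.05, 2 lay lower and 0 higher, against 3.13% and 3.08%, and by the z difference of 3, 0 lay higher or lower, against 0.0889% and 0.157%. The median z difference was 0.07 over subunits, 0.00 over assembly factors and 0.07 over all genes. Above 0 lay 28 of 54 members, against 10179 of all 19112 genes. With the trend against the CAP score taken off, the medians of subunits and assembly factors lay below 0, at -0.22 and -0.34. NUBPL had the lowest z difference, -2.05, followed by NDUFB10 with -1.72 and NDUFS1 with -1.17. NDUFB5, NDUFAF2 and NDUFA7 had the highest, at 1.46, 1.42 and 1.42. The smallest scaled difference called here was 4.26, and that of NUBPL was -2.43.

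**Figure D4:**
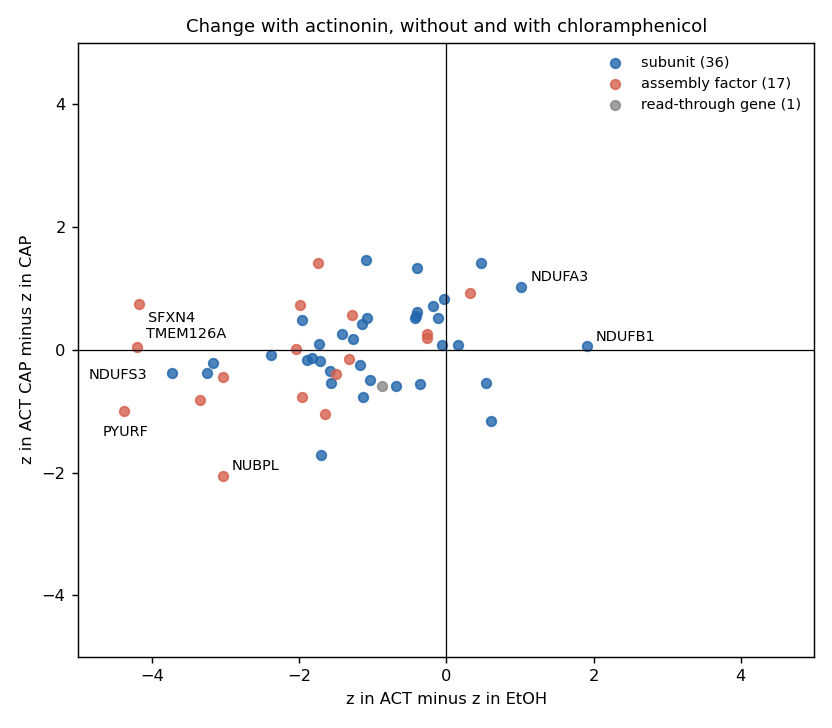
The z difference made by actinonin without chloramphenicol (ACT minus EtOH, horizontal axis) is plotted against that with chloramphenicol (ACT CAP minus CAP, vertical axis) for 36 subunits, 17 assembly factors and 1 read-through gene, on axes of the same scale and with no shared samples. Points reached -4.38 along the horizontal axis and stayed between -2.05 and 1.46 along the vertical axis.

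Whether the change with actinonin itself depended on chloramphenicol was tested as an interaction, the difference ACT CAP minus CAP less the difference ACT minus EtOH. By the scaled difference 0 members passed, against 0.0994% of all genes called higher and 0.513% lower. Unadjusted, at a p under 0.05, 8 lay higher and 0 lower, against 2.59% and 4.66%. By the value of 3 in z, 5 lay higher and 0 lower, against 1.67% and 5.5% of all genes: SFXN4 with 4.92, TMEM126A with 4.25, PYURF with 3.38, NDUFS3 with 3.35 and NDUFAF2 with 3.17. The scaled value of SFXN4, 3.48, came nearest to the smallest one called, 3.63. The median over the members was 1.14 and over all genes -0.24. All 17 assembly factors and 30 of 36 subunits lay above 0, against 8299 of 19111 genes in all. The lowest values were those of NDUFB1 with -1.85, NDUFS1 with -1.77 and NDUFC1 with -1.08. A combination of 4 conditions carries a larger error than a difference of 2, with a spread over all genes of 1.5 in z against 1.05 for ACT minus ACT CAP. For no member was it shown that its change with actinonin differed between cells with and without chloramphenicol.

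The other respiratory complexes were set beside complex I for ACT against ACT CAP. Complex IV came nearest, with 7 of 36 genes (19.4%) lower, 1 higher and a median z difference of -2.62. Those lower were the assembly or copper delivery factors PET117, SURF1, SCO1, COX14, COX20 and COX17 and the subunit COX5B, with z differences from -6.13 for PET117 to -3.95 for COX5B. The subunit COX5A rose, from a z of -4.38 in ACT CAP to 3.02 in ACT. Of the 36 complex IV genes, 23 lay lower and 2 higher at an unadjusted p under 0.05, against 39 and 1 of the 54 members. The z difference of 3 gave 10 complex IV genes lower and 1 higher, against 26 and 0 members. In complex II, complex III, complex V, iron-sulfur cluster assembly and flavin supply, 0 genes passed the test, and their median z differences were -1.51, -0.63, -0.91, 0.02 and 0.31. At an unadjusted p under 0.05, 3 of 6, 3 of 15 and 3 of 19 genes of complexes II, III and V lay lower. So did 1 of 12 genes of iron-sulfur cluster assembly, 1 of 4 of flavin supply and 3.2% of all genes. In iron-sulfur cluster assembly 2 genes lay higher. By the z difference of 3, 1 gene of complex V lay lower and 1 of iron-sulfur cluster assembly on each side. Of 11 other complex I genes, which hold NDUFAB1 and further proposed assembly or insertion factors, only RTN4IP1, a mitochondrial oxidoreductase, was called, with a z difference of -4.16. No difference between complexes was tested.

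**Figure D5:**
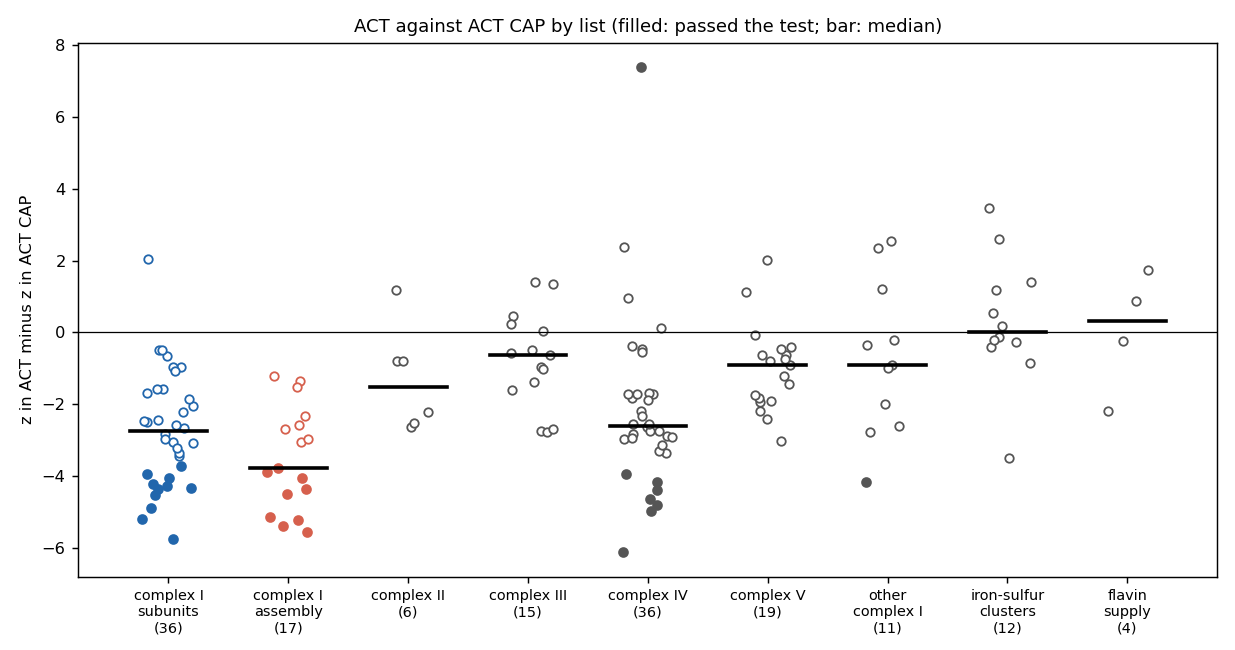
The z in ACT minus the z in ACT CAP (vertical axis, no unit) is plotted for the genes of each list, with the number of genes in brackets, filled points for genes that passed the test and a bar at the median; the horizontal spread of the points carries no value. The medians of complex I subunits, complex I assembly factors and complex IV were -2.74, -3.78 and -2.62, and those of the other lists lay between -1.51 and 0.31.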

How the data were processed

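Samples were assigned to EtOH, ACT, CAP or ACT CAP from their treatment labels. Per the methods, the authors processed reads in 1 batch and assigned them to sgRNAs. The submitters' processing notes name MAGeCK; versions and aligner are not given in the sources used here. The deposited table of 19112 genes holds a beta score and a z score per condition, which the authors fitted over 3 replicates, and the sgRNA number. Values per replicate and read depths were not analysed here, so the SE printed beside a value is that of the fit. The p-values behind the calls place a gene's difference within the spread of all genes. They do not measure variation between replicates. Permutation and FDR columns were not used. The authors' deposited Wald p-values served only to recompute 1146 of 76448 z scores, in 881 genes, that stood as calendar dates; no member (0 of 54) was concerned. The 1 ACT beta that stood as a date left 19111 genes in ACT comparisons.

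The SE was taken as beta divided by z. The 6 comparisons used the scaled difference described above (factor 1.4826). The trend was a running median over 501 genes. For pairwise comparisons it was taken against the score of the second condition, which is itself part of the difference. The study compares conditions by z differences and names no test for them. Because the table holds 1 value per condition, single genes got no exact test, and the scaled difference is printed in place of its p. Alternatives were z divided by its spread, the trend removed, a standard normal null, a z difference of 3, an adjusted p of 0.01, genes with exactly 4 sgRNAs, recomputed z left out, beta ranks and the lowest 5% of genes. The test was tested on simulated data. Members, modules and the 7 comparison lists, written from general knowledge, were chosen with earlier results of these data known. Full values were to be given for members called in any comparison, for the 3 largest and 3 smallest scaled differences of each and for the 5 lowest z in EtOH; other members were named after their values were seen. The values of 1 member are not reported here by name, but it stays in all counts and medians. All 54 symbols matched the RefSeq gene table of GRCh38.p14, used for names only, and 1 list gene (SDHAF4) had no match. Software was matplotlib 3.10.9, scipy 1.17.1, pandas 2.3.3 and numpy 2.4.6 under Python 3.11.15.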

Additional observations from a re-analysis of the deposited data

How the results depend on the processing

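Of 74 alternative values, 51 had the same sign and lay within 1.5 times the value reported, and 23 did not. With the trend removed, the median z difference of subunits and assembly factors turned sign in ACT CAP against CAP, to -0.22 and -0.34, and became 0.75 and 0.41 in CAP against EtOH and 0.57 and 0.63 in ACT CAP against EtOH, and that of subunits became -1.99 in ACT against EtOH. With z divided by its spread, the median of assembly factors in ACT CAP against CAP, 0.0042, became 0.014. The other medians, those of ACT against ACT CAP and of the interaction among them, stayed within 1.5 times. For ACT against EtOH the 3 members called became 6 with the trend removed, 0 with a standard normal null, 0 at an adjusted p of 0.01 and 9 by the z difference of 3. For CAP against EtOH the 1 member called became 0 with z divided by its spread, 0 with the trend removed, 0 with a standard normal null, 0 at an adjusted p of 0.01 and 9 by the z difference of 3. For ACT CAP against EtOH 0 became 10, and for the interaction 0 became 5, by the z difference of 3. For ACT against ACT CAP 20 became 0 with a standard normal null and 12 at an adjusted p of 0.01, and stayed between 14 and 26 under the others. The 14 members in the lowest 10% of genes in CAP and 15 in ACT CAP became 7 and 9 at the lowest 5%. Over all genes, the 55 called lower in ACT against ACT CAP became 36 with z divided by its spread, 5 with a standard normal null, 29 at an adjusted p of 0.01 and 127 by the z difference of 3, and the 102 called higher became 53 without genes that held a recomputed z. The 30 called lower in ACT against EtOH became 49 with the trend removed, 12 with a standard normal null, 14 at 0.01 and 147 by the z difference of 3, and the 36 called higher in CAP against EtOH became 23 with z divided by its spread, 9, 1, 9 and 216. The cause was not tested, except that the adjusted p of 0.01 sets a stricter limit by construction. The standard normal null was stricter in these data, where the spread of all genes was narrower than the fit's own errors give. No paired analysis was possible because the table holds 1 value per gene and condition, with the replicates combined, and for the same reason no replicate could be left out. Depth per sample was not analysed here. Scores of different genes depend on how well their sgRNAs cut, so a z near the median of all genes does not show that a subunit is dispensable.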
